A study of Mus musculus with 2 samples.

Results

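Chemokine ligands are small secreted or membrane-anchored proteins that direct the movement of leukocytes by binding receptors coupled to G proteins. They are named CC, CXC, CX3C or XC after the spacing of their first cysteines, and each ligand attracts the cells that carry its receptor. Macrophages are a main source of them, and many inflammatory chemokines are induced in them upon stimulation of Toll-like receptors.

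The genes described here are all those with a mouse symbol of Ccl or Cxcl followed by a number, together with Cx3cl1, Xcl1, Pf4 and Ppbp, as named through the transcript accessions of the probes on the array. This gave 37 ligand genes, measured by 46 probes, of 22910 named genes. A further 9 symbols of the same kind in the gene annotation, among them Cxcl11 and copies such as Ccl21b and Ccl27b, had no probe named in this way and are not analysed here. The rule uses gene symbols alone.

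The study compared primary macrophages with self-renewing macrophages, both from bone marrow cells of C57BL/6 mice grown with 100 ng/ml recombinant human M-CSF. The primary macrophages were the adherent cells at day 5. The self-renewing macrophages were taken after passage 4, from colonies that kept growing, and by the study's methods they were a bulk population except where clones are named. Neither label names a stimulus such as LPS. RNA of each was hybridized to 1 single-color Agilent array, so that every value below is a single measurement, no difference has a replicate check, and no test was made. Passage, time in culture and cell type cannot be told apart in this design, nor can fewer cells of a type and less RNA per cell.

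Signals are given as log2 of the background-corrected intensity relative to the 75th percentile of the same array, a level, and their difference as self-renewing minus primary, in log2 or as a fold. A gene was counted as detected where the scanner software flagged its probe as well above background. The error of a difference by the software's own model, which covers the spots and not the cultures, lay between 0.20 and 0.42 log2 for the detected ligand probes, with a median of 0.20 log2. Over 5077 genes with several probes, the SD of the difference between probes was 0.33 log2. Of 10 macrophage markers, 10 were detected on both arrays, among them Csf1r, the M-CSF receptor, at 8.04 and 8.42 log2. Their median difference was 0.34 log2, with 1 higher and 1 lower by 2-fold or more in self-renewing macrophages. Over all genes detected on both arrays these shares were 4.2% and 5.58%. Both samples carry the label male, but of 4 Y-linked genes, 0 were detected on the array labelled primary and 4 on the other, and Xist was detected on the former only. The array labelled primary therefore goes against that label, every difference below rests on it, and sex and cell type cannot be told apart.

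Of the 37 ligand genes, 22 were detected on at least 1 array, 19 on both and 3 in primary macrophages only. No ligand, that is 0 of 37, was detected in self-renewing macrophages only. Over all 15515 detected named genes, 1181 were detected in primary macrophages only and 331 in self-renewing macrophages only. Of the 22, 7 were higher in self-renewing macrophages by 2-fold or more, namely Ccl12, Ccl24, Ccl27a, Cxcl2, Cxcl10, Cxcl14 and Cxcl16. Another 6 were lower by as much, namely Ccl5, Ccl6, Cx3cl1, Cxcl1, Pf4 and Ppbp. The remaining 9 lay within 2-fold. Among all 15515 detected named genes, 4.76% were higher and 8.38% lower by 2-fold or more, against 31.8% and 27.3% of the detected ligands. By number these were 739 and 1300 genes, but 1035 and 1069 with the authors' own scaling, under which the ligand counts stayed at 7 and 6. Since a ligand detected on 1 array alone had to differ, the same count was made over the 19 detected on both arrays, of which 7 were higher and 4 lower. The shares over all 14003 genes detected on both arrays were 4.2% and 5.58%. The ligands differed in both directions, 11 above and 11 below 0, and their median difference was 0.02 log2, against -0.02 log2 over all detected genes. Over the 19 detected on both arrays it was 0.71 log2, against 0.01 log2.

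**Figure D1:**
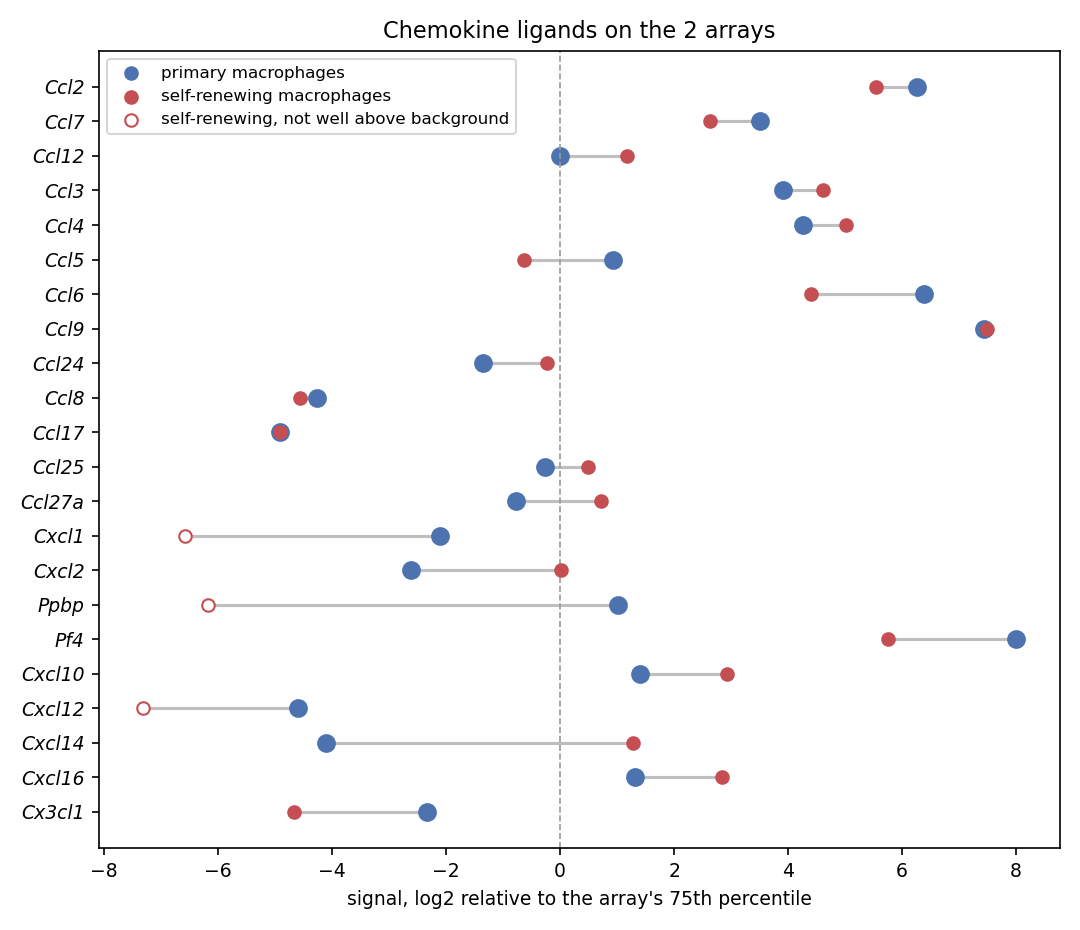
Signal of the 22 detected chemokine ligands on both arrays, as log2 relative to each array's 75th percentile (dashed line at 0), ordered by the receptors they bind. Blue points are primary and red points self-renewing macrophages, with an open point where the probe was not well above background. Levels of different genes come from different probes and are not to be set against each other. Cxcl1, Ppbp and Cxcl12 are open in self-renewing macrophages.

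The ligands of CCR2, the receptor by which monocytes leave the bone marrow and enter tissue, differed in direction. Ccl2, the main monocyte attractant, lay at 6.26 log2 in the primary and 5.54 log2 in self-renewing macrophages, 1.65-fold lower in the latter. Ccl7, its neighbor in the genome, lay at 3.50 and 2.62 log2, 1.84-fold lower. Ccl12, a mouse CCR2 ligand of the same run of genes, went the other way, from 0.01 to 1.17 log2, and was 2.23-fold higher in self-renewing macrophages. Each of these differences was larger than the scanner error of 0.20 log2, and each kept its direction under the 9 other ways of processing that were tried.

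Among the inflammatory CC ligands that draw monocytes, T cells and natural killer cells, Ccl3 and Ccl4 were higher and Ccl5 lower in self-renewing macrophages. Ccl3 lay at 3.91 log2 in the primary and 4.62 log2 in self-renewing macrophages, a difference of 1.63-fold. Ccl4 lay at 4.26 and 5.02 log2, a difference of 1.70-fold, and its 2 probes gave 0.76 and 0.75 log2. Ccl5, which is also made by activated T cells and induced by interferon, lay at 0.94 and -0.64 log2 and was 2.98-fold lower. Of 8 lymphocyte markers, 5 were detected on the primary array and 2 on the other. Of the 5, 2 were lower by 2-fold or more, against 8.38% of all detected genes, and the T cell gene Cd3e differed by -0.05 log2. The summed signal of the lymphocyte markers was 4.14 and 2.40 times the 75th percentile and their median difference was -0.20 log2. The part of lymphocytes in the lower Ccl5 was not tested. Thus these 3 ligands differed in direction, by 0.71 and 0.76 log2 against -1.58 log2.

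Ccl6 and Ccl9 are CCR1 ligands found in rodents and made by myeloid cells without stimulation. Ccl9 lay at 7.44 log2 in the primary and 7.49 log2 in self-renewing macrophages, a difference of 0.05 log2 that is within the scanner error of 0.20 log2. Ccl6 lay at 6.39 and 4.41 log2 and was 3.95-fold lower in self-renewing macrophages. The genes of these ligands lie next to each other.

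The ligands of CXCR2, the main chemokine receptor of neutrophils, differed in direction among themselves. Cxcl2 lay at -2.62 log2 in primary macrophages and at 0.01 log2 in self-renewing macrophages, 6.21-fold higher in the latter. Cxcl1, a close relative and genomic neighbor of Cxcl2, was detected at -2.11 log2 in primary macrophages and was not detected in self-renewing macrophages, where its probe read -6.59 log2. It was at least 7.83-fold lower there, a bound taken against the lowest signal that counted as well above background on that array, -5.08 log2. Ppbp, the precursor of platelet basic protein, was detected at 1.02 log2 in primary macrophages only and was at least 69.0-fold lower in self-renewing macrophages, where it read -6.17 log2. With a model-based background correction (normexp), which adds a constant to every signal, Cxcl2 was at 1.84, Cxcl1 at -1.24 and Ppbp at -3.85 log2, all in the same direction. Cxcl3, Cxcl5 and Cxcl15 were detected on neither array.

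Cxcl1 and Cxcl2 are well known as targets of NF-κB, and the opposite direction of this pair is the reason to show the bases before their start sites. They are read in the direction of the gene and end at the base before the start, from RefSeq on GRCm38.p6, with matches to the NF-κB consensus of 10 bases in capitals. Cxcl1 is shown at chr5:90891115-90891244, + strand, and Cxcl2 at chr5:90903769-90903898, + strand.
Cxcl1: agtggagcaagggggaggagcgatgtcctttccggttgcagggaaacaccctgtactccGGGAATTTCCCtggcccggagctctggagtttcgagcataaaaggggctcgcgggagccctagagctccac
Cxcl2: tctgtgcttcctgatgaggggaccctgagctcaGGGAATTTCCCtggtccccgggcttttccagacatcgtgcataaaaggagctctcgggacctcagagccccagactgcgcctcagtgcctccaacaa

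The capitals spell the same run in both genes and hold a pair of overlapping matches, 1 on each strand. Counted from the start site, the run begins at -71 in Cxcl1 and at -97 in Cxcl2. Cxcl3 holds such a pair from -73 and was detected on neither array. The match was present before the ligand that was higher, the ligand that was lower and a ligand that was not detected. Its part in their signals was not tested.

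Pf4, or platelet factor 4, is a CXC chemokine stored in platelet granules and also made by macrophages, and it lies beside Ppbp. It lay at 8.0 log2 in primary macrophages and 5.76 log2 in the self-renewing ones, where it was 4.72-fold lower. Since Pf4 and Ppbp are both abundant in megakaryocytes and platelets, a list of 10 marker genes of those cells was set beside them. All 10 were detected in primary and 6 in self-renewing macrophages, their differences reached from -2.14 to 0.22 log2, and the sum of their linear signals was 11.1 and 9.61 times the 75th percentile, most of it from Vwf and Treml1, which differed by -0.30 and 0.08 log2. Of the 10, 8 lay below 0 with a median over the list of -0.46 log2, and Gp9 and Gp1ba were lower by 2-fold or more, with bounds of -2.14 and -1.62 log2. The markers detected in primary macrophages only were Itga2b, Gp1ba, Gp9 and Gata1. Their part in the lower Pf4 and Ppbp was not tested. Of 9 neutrophil markers with a probe, 8 were detected in primary and 4 in self-renewing macrophages. All 8 were lower in the latter, 7 of them at least 2-fold, among them S100a9, S100a8 and Mmp8, and their summed signal was 119 and 6.53 times the 75th percentile. Lower by 2-fold or more were 20% of the detected platelet list and 87.5% of the neutrophil list, against 8.38% of all detected genes. Of all 15515 detected named genes, 1181 were detected in primary macrophages only. Neutrophils and their precursors are known to express several CXCR2 ligands and Ccl6, and the part of these cells in the ligands lower in self-renewing macrophages was not tested either.

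Of the CXCR3 ligands, which are induced by interferon and attract activated T cells, Cxcl10 was detected on both arrays, at 1.41 log2 in the primary and 2.93 log2 in self-renewing macrophages, 2.87-fold higher in the latter. Cxcl9, which depends mainly on interferon-γ, was detected on neither array. Beside Cxcl10, 11 interferon-induced genes were detected on both arrays, of which 4 were higher in self-renewing macrophages by 2-fold or more and 0 lower by as much, against 4.2% and 5.58% of all genes detected on both arrays, with a median of 0.90 log2. The 4 were Ifit3 at 1.86 log2, Usp18 at 1.57 log2, Ifit1 at 1.30 log2 and Ifit2 at 1.14 log2.

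The bases before Cxcl10 are shown since this was the only one of 16 detected ligands with a sequence in the RefSeq promoter set to match each of 3 motifs searched on both strands. These were the NF-κB consensus, the interferon-stimulated response element, a pair of GAAA separated by a pair of free bases, and the AP-1 site TGANTCA, in windows of 300 bases that end 50 bases after the start. Cxcl10 is shown at chr5:92348890-92349119, - strand, with all matches in capitals.
Cxcl10: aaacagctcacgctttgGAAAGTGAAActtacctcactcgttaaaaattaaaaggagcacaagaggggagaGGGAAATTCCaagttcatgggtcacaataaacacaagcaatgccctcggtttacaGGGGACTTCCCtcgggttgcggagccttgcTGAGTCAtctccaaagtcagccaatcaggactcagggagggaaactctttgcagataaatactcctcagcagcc

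From the left, the capitals mark the interferon-stimulated response element, the first NF-κB match, a pair of overlapping NF-κB matches and the AP-1 site. Of the 16, 5 held the NF-κB consensus, namely Ccl9, Ccl27a, Cxcl1, Cxcl2 and Cxcl10, against 8.46% of all 32851 windows. The interferon-stimulated response element was found before Cxcl10 and Cxcl14, against 3.44% of windows, and the AP-1 site in 4, against 7.81%. A match describes letters in a window and is not a bound site.

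Cxcl14, a CXC chemokine best known from epithelia and stroma whose receptor is not settled, was higher in self-renewing macrophages by 1 of its 2 probes. Its brighter probe lay at -4.10 log2 in primary macrophages and at 1.27 log2 in self-renewing macrophages, 41.5-fold higher in the latter with a scanner error of 0.25 log2. A second probe, placed on a predicted transcript of the gene, lay at -4.51 and -5.03 log2, was detected in primary macrophages only and gave a bound of -0.52 log2. The 2 probes therefore disagreed, and the mean over them was 2.43 log2. The 41.5-fold value rests on 1 probe, which gave 3.49 log2 with normexp. Of 10 stromal markers, 4 were detected on both arrays, and Col1a1, Col3a1, Pdgfra, Pdgfrb, Dcn and Lum on neither. The sum of the linear stromal signals was 10.4 times the 75th percentile in the primary and 9.47 times in self-renewing macrophages, most of it from Lepr, at 3.27 and 3.13 log2. Col1a2 was the 1 detected stromal marker above 0, at 0.69 log2, and the part of such cells in the higher Cxcl14 was not tested.

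The stretch before the start of Cxcl14, at chr13:56296552-56296751 on the - strand, is shown because of this difference, with the match to the interferon-stimulated response element in capitals. The second stretch is Pf4, at chr5:90772305-90772434 on the + strand, which matched none of the 3 motifs and was lower in self-renewing macrophages.
Cxcl14: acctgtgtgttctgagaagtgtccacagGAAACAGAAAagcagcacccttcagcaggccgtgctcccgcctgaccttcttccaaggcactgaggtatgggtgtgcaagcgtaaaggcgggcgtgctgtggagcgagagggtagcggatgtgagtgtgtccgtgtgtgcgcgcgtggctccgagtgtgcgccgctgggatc
Pf4: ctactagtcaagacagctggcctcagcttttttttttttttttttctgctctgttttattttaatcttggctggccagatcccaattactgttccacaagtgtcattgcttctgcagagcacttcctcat

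Cxcl16 and Cx3cl1 are made as transmembrane proteins that can be shed, and they differed in opposite directions. Cxcl16, which is also a scavenger receptor for oxidized lipoprotein, lay at 1.32 log2 in the primary and 2.84 log2 in self-renewing macrophages, 2.88-fold higher in the latter, and its 2 probes gave 1.52 and 1.57 log2. Cx3cl1, or fractalkine, lay at -2.33 and -4.67 log2 and was 5.04-fold lower. Its self-renewing level was close to the lowest signal counted as well above background, -5.08 log2, and with normexp the difference was -0.85 log2. Cxcl12, the CXCR4 ligand that keeps hematopoietic cells in the marrow, was dim, at -4.60 log2 in primary macrophages by 1 of its 2 probes, and was at least 1.40-fold lower in self-renewing macrophages. The second Cxcl12 probe was not well above background on either array.

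Among the other CC ligands, Ccl24, an eotaxin that attracts eosinophils through CCR3 and is made by alternatively activated macrophages, lay at -1.35 and -0.23 log2 and was 2.17-fold higher in self-renewing macrophages. With normexp it was at 0.90 log2, below 2-fold. Ccl25, the thymic and intestinal ligand of CCR9, lay at -0.26 and 0.49 log2 by its brightest probe, and its 3 probes gave 0.75, 0.94 and 1.02 log2. Ccl27a, a skin ligand of CCR10, lay at -0.78 and 0.73 log2, 2.84-fold higher in self-renewing macrophages. Its other probes gave 1.47 and 0.37 log2, and transcripts of the near-identical Ccl27b may bind the same probes, so its value is uncertain. The dim ligands Ccl8 and Ccl17 lay at -4.27 and -4.56 log2, and at -4.91 and -4.92 log2, and both differences were within their scanner errors of 0.36 and 0.42 log2.

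**Figure D2:**
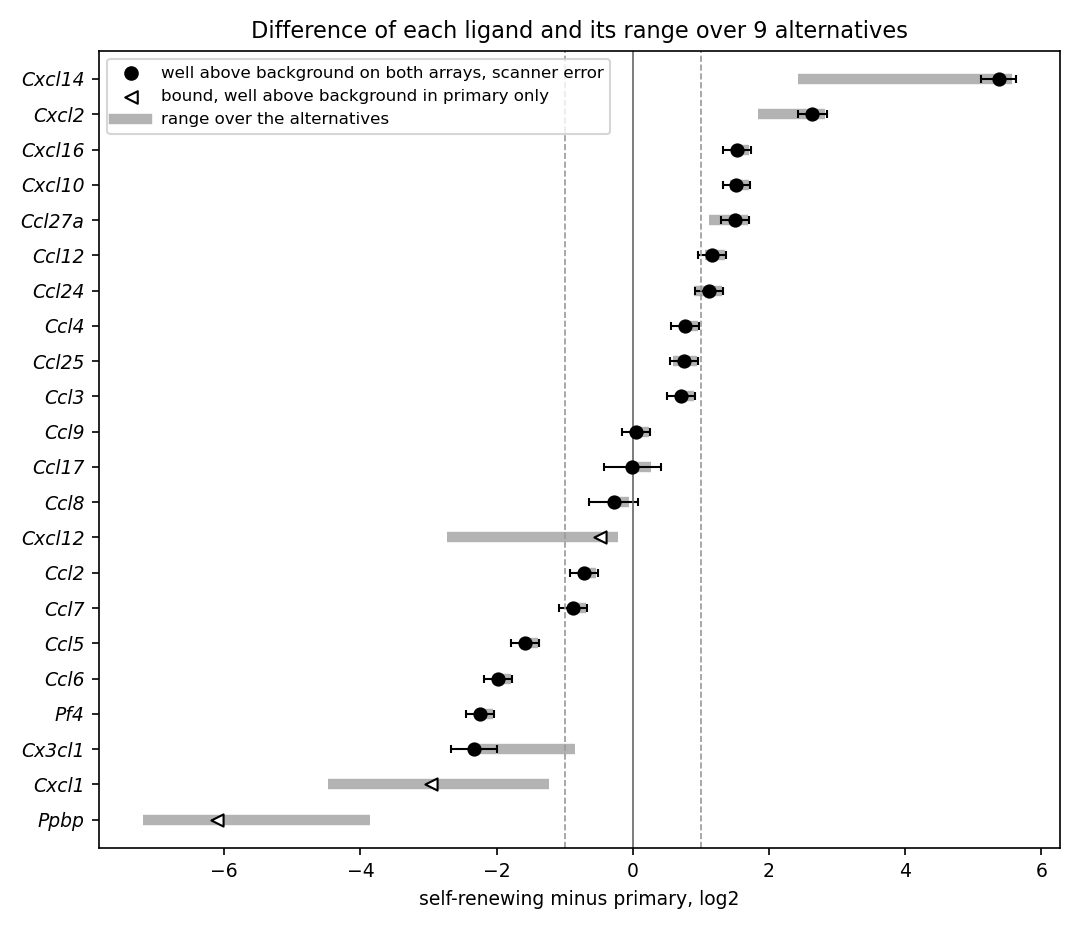
Difference of each detected ligand between self-renewing and primary macrophages in log2, sorted by size, with the 2-fold limits as dashed lines. Filled points are ligands detected on both arrays with the scanner software's error, open triangles are bounds for ligands detected in primary macrophages only, and gray bars span the values under up to 9 other ways of processing. The bars of Cxcl14, Cxcl1 and Ppbp are wide, and that of Ccl17 crosses 0.

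The 15 ligands detected on neither array were Ccl1, Ccl11, Ccl19, Ccl20, Ccl21a, Ccl22, Ccl26, Ccl28, Cxcl3, Cxcl5, Cxcl9, Cxcl13, Cxcl15, Cxcl17 and Xcl1. Their 16 probes read between -7.50 and -5.26 log2 in primary macrophages and between -7.34 and -5.59 log2 in self-renewing macrophages. They include the lymphoid organ chemokines Ccl19, Ccl21a and Cxcl13, which stromal cells make, and the epithelial ones Ccl20, Ccl28, Cxcl15 and Cxcl17. Their signals were not distinguishable from background, which does not show that the transcripts are absent.

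Several of these genes lie in runs of neighbors that arose by duplication, and within each of 3 runs the differences went in both directions. In the run from Ccl2 over Ccl7, Ccl11, Ccl12 and Ccl8 to Ccl1, Ccl2, Ccl7 and Ccl8 lay below 0 and Ccl12 at 1.16 log2. In that from Ccl5 to Ccl4, Ccl5 and Ccl6 lay at -1.58 and -1.98 log2, while Ccl9, Ccl3 and Ccl4 lay between 0.05 and 0.76 log2. In that from Cxcl5 to Cxcl2, Ppbp, Pf4 and Cxcl1 were lower and only Cxcl2, at the end of the run, was higher.

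**Figure D3:**
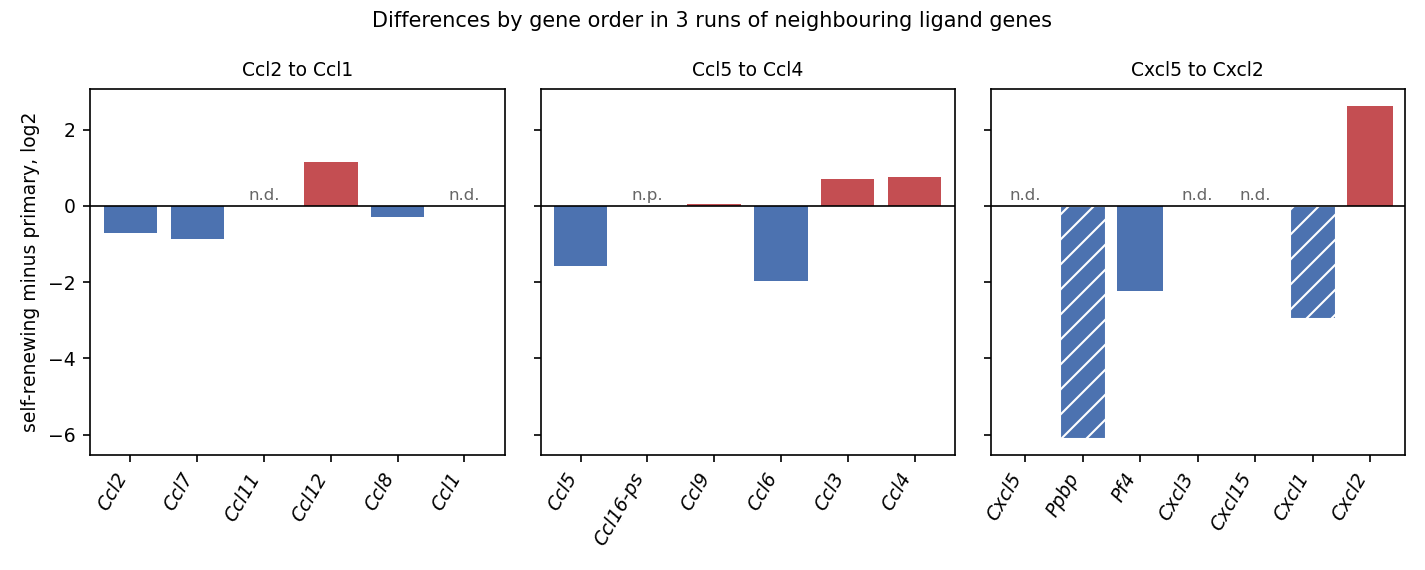
Difference in log2 between self-renewing and primary macrophages for the ligand genes of 3 runs, each in the order of the genes along the chromosome. Red bars are higher and blue bars lower in self-renewing macrophages, hatched bars are bounds, n.d. marks a gene detected on neither array and n.p. one with no named probe. The bars of Cxcl1 and Cxcl2, side by side, point in opposite directions.

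The receptors of these ligands were measured on the same arrays. Of 24 chemokine receptor genes, 16 were detected on at least 1 array, 3 higher and 6 lower in self-renewing macrophages by 2-fold or more, against 4.76% higher and 8.38% lower over all detected genes. With only genes detected on both arrays these counts were 2 and 3, and with normexp 2 and 4. Ccr2, at -6.64 log2, was lower by more than any of its ligands listed here. Ccr1 was detected in primary macrophages only, with a bound of -2.52 log2 or 5.75-fold, which went to -1.02 log2 under the alternatives. Cxcr4 was 4.09-fold higher, while its dim ligand Cxcl12 had a bound of -0.49 log2. Under the alternatives that bound went to -0.21 log2, less in size than the SD between probes of 0.33 log2. Cx3cr1 was 2.13-fold higher while Cx3cl1 was 5.04-fold lower. Cxcr6, the receptor of Cxcl16, differed by 0.46 log2, and Cxcr3, that of Cxcl10, by -0.42 log2. Ccr10, the receptor of Ccl27a, was detected in self-renewing macrophages only, with a bound of 1.46 log2, as was the dim Cxcr2, with a bound of 0.47 log2. Under the alternatives these went down to 0.33 log2, below 2-fold, and 0.06 log2.

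**Figure D4:**
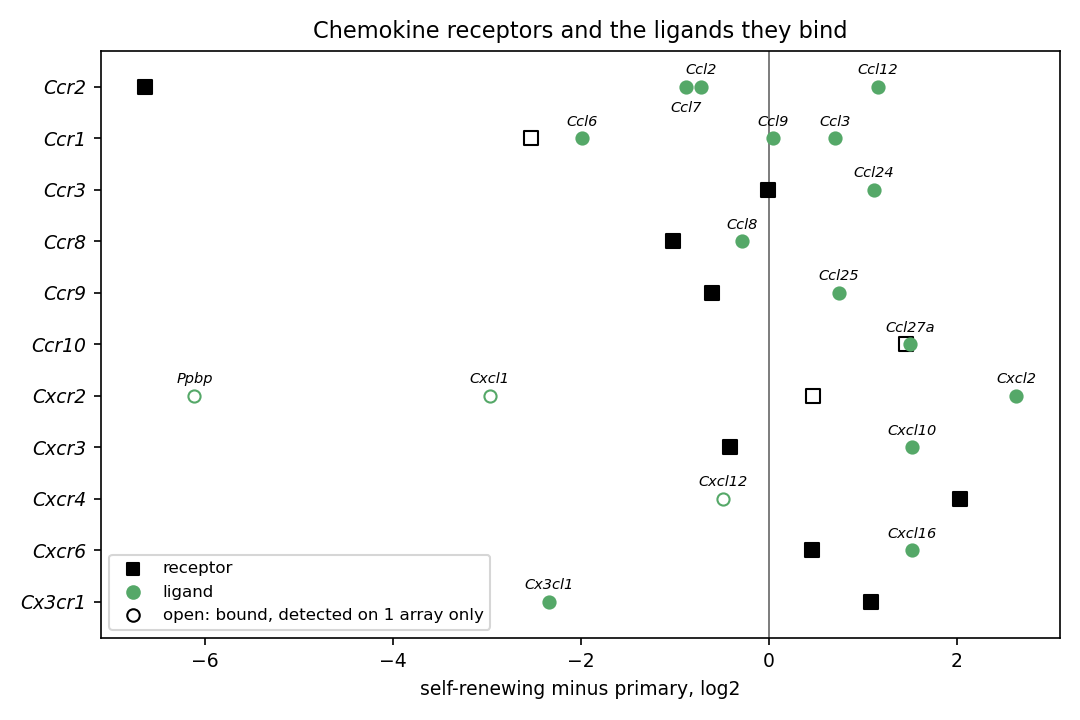
Difference in log2 between self-renewing and primary macrophages for 11 detected chemokine receptors (black squares) and, on the same line, for the ligands that bind them (green points). Open symbols are bounds for genes detected on 1 array only. Ccr2 lies far to the left of its ligands, and Cxcr4 and Cx3cr1 to the right of theirs.

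Of 24 genes for signaling downstream of chemokine receptors, 23 were detected on both arrays and 20 of them lay within 2-fold. The 2 higher and 1 lower are 8.70% and 4.35% of these, near the 4.2% and 5.58% of all genes detected on both arrays. They were Rgs16, which shortens G protein signals, at 3.82 log2, Grk3, a receptor kinase, at 1.56 log2, and Plcb2, a phospholipase, at -1.26 log2. A list of inflammatory genes that are not chemokines, many of them targets of NF-κB, had 14 of 18 members detected, of which 6 were higher and 2 lower by 2-fold or more, against 4.76% and 8.38% of all detected genes, with a median of 0.80 log2. With normexp 3 were higher. Among those higher were Tnf at 1.65 log2, Nfkbia at 1.63 log2 and Ptgs2 with a bound of 1.48 log2 that went down to 0.50 log2 under the alternatives, and those lower were Il10 at -3.20 log2 and Cd40 at -2.67 log2.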

How the data were processed

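RNA of 1 culture each of primary and self-renewing macrophages was hybridized to single-color Agilent mouse arrays. The authors deposited the output of Agilent Feature Extraction 11.5.1.1, with each spot's raw intensity, its intensity after background subtraction, and its error, unscaled between arrays. Their value table equals the corrected intensity times 1.07 (primary) or 1.19 (self-renewing), constants whose origin is not given in the sources used here. There were 0 saturated spots.

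Outlier spots (63 per array) were removed, spots of a probe averaged, and log2 intensity centered on each array's 75th percentile (434 and 446). Accessions named 32988 of 56598 probes through a GRCm38.p6 annotation, which gave only names, gene order and promoters, since the array is older. The brightest detected probe stood for a gene. For a gene detected on 1 array, the difference is a bound: the undetected side was set to the detection floor of its array, or to its measured value where that was greater. Promoter windows existed for 27 of 37 ligands.

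The ligands and lists were chosen with earlier results of these data known. Named were all ligands, the receptors of those described, up to 5 members beyond 2-fold of each other list, up to 3 markers by signal, and, chosen after their values were seen, markers detected on 1 or no array. Markers of mast cells, basophils and eosinophils, of dendritic cells and of endothelium had medians of -0.30, -0.53 and -0.48 log2. Of those detected, 2 of 5, 2 of 6 and 0 of 4 were lower by 2-fold or more, against 8.38% of all detected genes. These were Siglecf at -3.25 log2 and Prg2 with a bound of -2.60 log2, and Ciita at -3.29 and Itgax at -3.16 log2. The dendritic cell median over genes detected on both arrays was -1.53 log2. Of the 6 dendritic cell markers, 2 lay above 0, among them Siglech, the brightest, at 7.60 log2 in primary and 7.69 log2 in self-renewing macrophages. The summed signal of that list was 207 and 208 times the 75th percentile, most of it from Siglech. Some members of the receptor and marker lists are counted but not reported here by name. The code was tested on simulated arrays. Alternatives were normexp (offset 50, median spot signals), quantile normalization, the 75th percentile or median of detected probes, the authors' values, no background filter, only genes detected on both arrays, probe means, and outlier spots kept. Python 3.11.15, pandas 2.3.3, R 4.3.3 and limma 3.58.1 were used.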

Additional observations from a re-analysis of the deposited data

How the results depend on the processing

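No paired analysis was possible because 1 array stands for each cell type, and no replicate could be left out. Over the 9 alternatives 6 or 7 ligands were higher in self-renewing macrophages by 2-fold or more, and 4 to 8 lower. The median over the ligands moved from 0.02 to 0.71 log2 when only genes detected on both arrays were kept, since this drops the 3 ligands with a negative bound. The authors' scaled values raised all differences by 0.19 log2. Of 195 values of single ligands under the alternatives, 185 stayed within the SD between probes of a gene and 10 did not, in 7 ligands. The direction of 0 ligands beyond 2-fold changed, and that of Ccl17 did. With normexp, Cxcl14 was at 3.49, Cxcl2 at 1.84, Cx3cl1 at -0.85, Cxcl1 at -1.24 and Ppbp at -3.85 log2. An offset added to every signal draws dim genes together by construction. Counting all genes beyond 2-fold, normexp gave 427 higher and 759 lower and the absence of a background filter 1192 and 2336, against 739 and 1300 as reported, and 782 were lower with only genes detected on both arrays. The inflammatory genes at least 2-fold higher went from 6 to 3 with normexp, and the receptors at least 2-fold lower from 6 to 3 with only genes detected on both arrays and to 4 with normexp. The receptors at least 2-fold higher went from 3 to 2 under each of these.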
